A study of Mus musculus with 7 samples.

Results

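*Osr1* and *Ttc32* are neighbouring genes on mouse chromosome 12, and the sequence between them gave a dense group of *Tbx5*-dependent noncoding RNAs (ncRNAs) in the adult left atrium. The loci described here are the rows of the deposited ncRNA list whose neighbouring genes include *Osr1* or *Ttc32*, which gave 35 of 1489 loci (2.35%). All 35 named *Osr1*, and 29 of them named *Ttc32* as well. The list had been selected on measured values, namely the fold change and false discovery rate between *Tbx5* knockout and control libraries, so that membership itself is not a finding here. The 29 loci lay upstream of *Osr1*, in the space between the pair of genes, and the other 6 lay past the 3' end of *Osr1*. The nearest listed loci outside this set on chromosome 12 were XLOC_012237 at 449 kb before the first and XLOC_012261 at 1560 kb after the last.

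The study sequenced RNA depleted of ribosomal and polyadenylated transcripts from the left atrium of male mice of mixed strain aged 6 to 8 weeks, in 3 control and 4 *Tbx5* knockout libraries. The knockout carried floxed *Tbx5* and a tamoxifen-inducible Cre under the ubiquitous R26 promoter (*Tbx5*fl/fl;*R26*CreERt2), and controls had *R26*CreERt2 alone. The R26 promoter is active in most cell types, and in whole atrium a change in the number of cells of a type cannot be told apart from a change in RNA per cell. The files used here give position, strand, annotation, neighbouring genes and a conservation score of each locus but no level per library. The depth and the spread between libraries behind each locus are thus unknown, and no test of knockout against control was made. No direction of change was assigned, because the table carries marks of both signs. Its number of rows is that of the ncRNAs described by the study as higher after deletion, and its name holds the word up. The same name holds another number, that of the ncRNAs described as lower, and the heading of the linked gene column holds dn, which may refer to the genes alone.

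TBX5 is a T-box transcription factor of the atria that is needed for atrial septation during development and for normal rhythm in the adult. *Osr1* encodes a zinc finger transcription factor of the odd-skipped family. In the mouse embryo it acts in the posterior second heart field, where it works with *Tbx5* and Hedgehog signalling in forming the atrial septum, and it is also known from early kidney development. *Ttc32* encodes a protein with tetratricopeptide repeats. Noncoding transcripts without a poly(A) tail can arise at enhancers, often as short RNAs from both strands, or as long transcripts from a single strand.

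The loci were spread very unevenly over the 528 kb between the *Ttc32* and *Osr1* gene bodies. A run of 23 plus-strand loci, each at most 10 kb from the next, extended from 9089724 to 9315354 (mm10 throughout), a span of 226 kb, and covered 206 kb of it (91.5%). It began 47.7 kb past the end of *Ttc32* and stopped 255 kb before the *Osr1* gene body, or 259 kb before the start of the main *Osr1* mRNA in RefSeq. Both genes are on the plus strand, so the run lay downstream of *Ttc32* and upstream of *Osr1* in the sense orientation of both. In windows of 100 kb counted from the end of *Ttc32*, listed loci covered 44.2% of the first, 95.5% of the second and 69.4% of the third. The share then dropped to 0.415% in the fourth window and 0 in the fifth, and was 1.07% in the last stretch before *Osr1*. The map shows a nearly closed block of listed loci on the side of *Ttc32*. A long interval next to *Osr1* was almost without listed loci, which does not show that it was without transcripts.

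**Figure D1:**
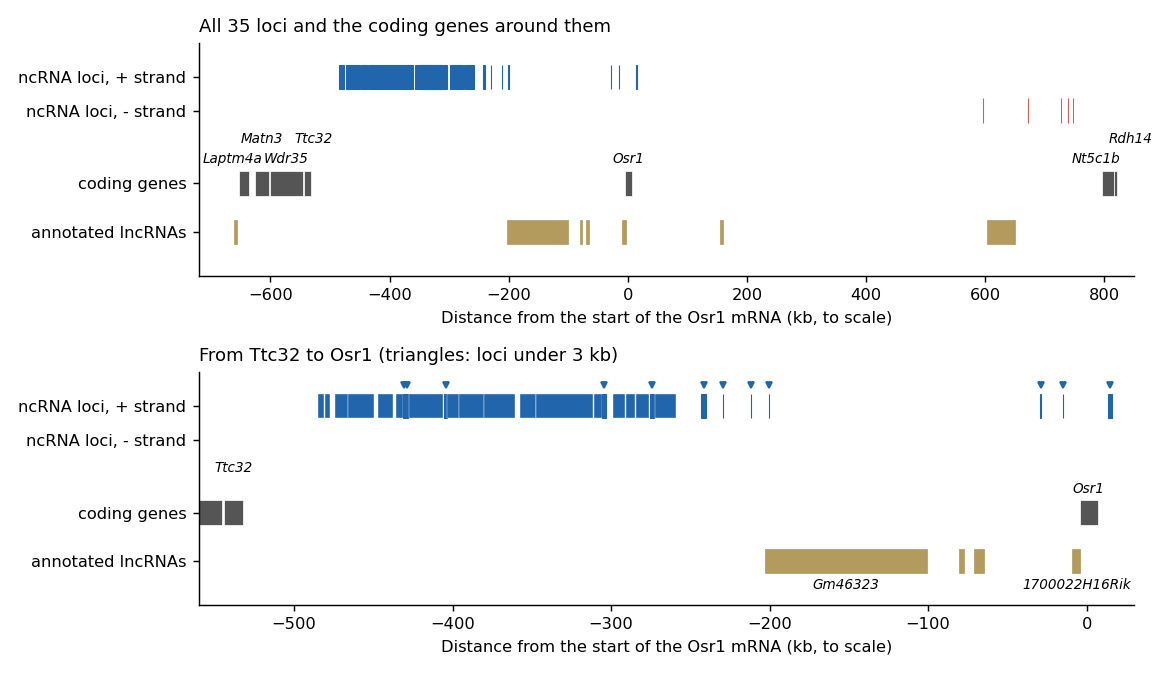
Position of the 35 ncRNA loci (blue, plus strand; red, minus strand), coding genes (grey) and GENCODE lncRNAs (tan), as distance in kb from the start of the *Osr1* mRNA; the lower panel enlarges the interval from *Ttc32* to *Osr1*, with triangles over loci under 3 kb. The run of 23 loci fills 91.5% of a 226 kb span that ends 259 kb before the *Osr1* mRNA start.

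The block was made of long assembled loci placed end to end, whose lengths are the distance from first to last base and may include introns. Its 23 loci had a median length of 7742 bp, from 1333 bp for XLOC_010916 to 35479 bp for XLOC_010925 and XLOC_010926. The latter pair occupied the same interval, 9227229 to 9262707, with the same conservation score, and thus stand for 22 distinct intervals in the run. Such a repeated interval occurred 3 times in the whole list. The next longest loci were XLOC_010918 with 21767 bp (9146741 to 9168507), XLOC_010922 with 19614 bp (9194244 to 9213857) and XLOC_010909 with 16311 bp (9108692 to 9125002). These long loci were interleaved with short ones, as where XLOC_010916 and XLOC_010917, of 1333 and 1989 bp, directly preceded XLOC_010918. Lengths followed no simple order along the block, which opened with XLOC_010903 (3328 bp) and closed with XLOC_010939 (13487 bp).

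The breaks between consecutive loci were small beside the loci themselves. The 21 gaps had a median of 176 bp, and 11 of them were under 200 bp and 15 under 1000 bp. The smallest gap was 55 bp and the largest 4357 bp, and 4 gaps reached 2000 bp. In all the gaps amounted to 19272 bp. Whether neighbouring loci are pieces of one transcript was not tested.

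The identifiers of the assembly gave a count of how completely the block was listed. A run starts and ends on a listed locus and joins only close ones, so a high share within it is partly built in. They rose with position on each chromosome and strand throughout the list. From the first to the last locus of the run there were 37 identifiers, of which 23 (62.2%) were listed and 14 were not. From there to the last locus before *Osr1* there were 81 identifiers, of which 6 (7.41%) were listed. Over chromosome 12, plus strand, from the first to the last listed locus, the share was 4.55% of 1341, a number that may include identifiers of coding genes. What the unlisted identifiers stand for was not analysed here.

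The block held no annotated gene. Of the 35 loci, 0 carried an annotated gene in the table, against 13.6% of the whole list. In GENCODE M21, 4 lncRNA genes lay between *Ttc32* and the start of the *Osr1* mRNA, and 0 of them began before the end of the run. The first of these, the lincRNA *Gm46323* on the plus strand, started 56.1 kb after the run and spanned 102 kb. No locus of the run overlapped a gene of GENCODE or RefSeq.

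Between the run and *Osr1* the 6 remaining upstream loci were isolated and mostly short, again on the plus strand. XLOC_010948, of 2782 bp (9331390 to 9334171), was the first after the run, and the other 5 measured 120 to 165 bp. XLOC_010958 and XLOC_010964, of 156 and 139 bp, lay 225 and 207 kb upstream of the *Osr1* gene body. XLOC_010970 (9373948 to 9374067, 120 bp) fell within an intron of *Gm46323* in sense, and was the only one of the 35 loci to overlap a GENCODE gene. It touched 0 annotated exons. The closest upstream loci to *Osr1* were XLOC_011014 (9545329 to 9545493, 165 bp), at 24.6 kb from the gene body, and XLOC_011020 (9559525 to 9559659, 135 bp), at 10.5 kb. None of the 35 loci overlapped *Osr1* or *1700022H16Rik*, a minus-strand lncRNA that starts 3.86 kb before the *Osr1* mRNA and points away from it. The start of *1700022H16Rik*, at 9570585, lies within the *Osr1* gene body of GENCODE, which begins at 9570116.

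Past *Osr1* the loci fell into 2 unlike groups. XLOC_011031 (9587803 to 9590352, 2550 bp, plus strand) lay 6.30 kb past the 3' end of *Osr1* in sense and was the closest of all 35 loci to the gene. It was without a GENCODE gene, but fell within *Gm40268*, a lncRNA that RefSeq places at 9581966 to 9600939. The other 5 loci were on the minus strand between 10170278 and 10322575, from 589 to 741 kb past *Osr1*, and measured 62 to 505 bp. They lay in the far part of the 788 kb gap that separates *Osr1* from *Nt5c1b*, a gene for a cytosolic nucleotidase. Their distances to *Nt5c1b* ran from 47.4 to 200 kb. Listed loci covered 0.452% of that gap, against 39.7% of the gap between *Ttc32* and *Osr1*.

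The links to *Tbx5*-dependent coding genes in the table concerned only these distant minus-strand loci. A linked gene was entered for 4 of the 35 loci, against 25.8% of the list. In each case it was *Rdh14*, which encodes a retinol dehydrogenase and lies beyond *Nt5c1b* on the plus strand. XLOC_012254 was 68.2 kb upstream of *Rdh14*, XLOC_012251 78.1 kb, XLOC_012248 89.7 kb and XLOC_012245 145 kb, all in antisense. XLOC_012244, at 220 kb from *Rdh14*, named neither the gene nor a link. *Osr1* and *Ttc32* were not entered as linked genes of any locus, nor were the remaining coding neighbours of the run. The other large runs compared below also had 0 loci with an entry for a linked gene. The heading of that column may restrict it to genes of a single direction, so an empty entry does not show that a gene was unchanged.

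The names of further neighbours depended on distance and changed along the block. *Wdr35*, which encodes a component of the intraflagellar transport machinery of cilia, was named by the first 10 loci of the run, with a gene start up to 196 kb from the centre of the locus, and not by the next at 201 kb. *Matn3*, a cartilage matrix protein gene, was named by 8 loci, up to 198 kb away, and not at 210 kb. *Laptm4a*, which encodes a lysosomal membrane protein, was named by 4 loci, up to 195 kb away, and not at 210 kb. *Ttc32* and *Osr1*, which border the gap, were named at up to 530 and 752 kb, and *Nt5c1b* at up to 781 kb. Naming of a gene in the list is thus a statement of position, with bordering genes named over any distance and others within about 200 kb.

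Promoter sequences of the region are shown to place them along the interval. They are those of the linked gene, the lncRNA that a locus fell within and the lncRNA that starts upstream of the *Osr1* mRNA. RefSeq promoter windows (GRCm38.p6, 250 bases before to 50 after the start) were found for 7 of 9 genes of the region, and not for *Osr1* and *Ttc32*. The first window below is that of *Gm46323* (chr12:9371176-9371425, plus strand), whose intron holds XLOC_010970. The next is that of *1700022H16Rik* (chr12:9570586-9570835, minus strand), the lncRNA divergent from the *Osr1* mRNA. The last is that of the linked gene *Rdh14* (chr12:10390530-10390747, plus strand). All are written 5' to 3' up to the annotated gene, which leaves 218 bases for *Rdh14*, with CpG dinucleotides in capitals.
Gm46323: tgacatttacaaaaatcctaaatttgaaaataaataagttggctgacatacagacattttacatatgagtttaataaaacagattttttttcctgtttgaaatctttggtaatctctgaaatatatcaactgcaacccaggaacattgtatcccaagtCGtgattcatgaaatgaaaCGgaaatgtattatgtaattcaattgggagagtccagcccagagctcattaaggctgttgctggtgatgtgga
1700022H16Rik: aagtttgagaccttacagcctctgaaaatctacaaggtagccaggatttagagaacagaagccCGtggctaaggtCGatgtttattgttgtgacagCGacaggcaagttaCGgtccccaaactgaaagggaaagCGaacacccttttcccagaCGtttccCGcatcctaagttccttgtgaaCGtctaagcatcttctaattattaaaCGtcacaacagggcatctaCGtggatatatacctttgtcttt
Rdh14: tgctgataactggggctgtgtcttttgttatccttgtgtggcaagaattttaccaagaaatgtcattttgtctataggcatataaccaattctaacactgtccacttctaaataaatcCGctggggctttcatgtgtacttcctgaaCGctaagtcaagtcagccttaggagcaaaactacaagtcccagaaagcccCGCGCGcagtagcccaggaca

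In the 250 bases before the start, *1700022H16Rik* had 10 CpG dinucleotides at an observed to expected ratio of 0.813, *Rdh14* had 9 at 0.627 and *Gm46323* had 2 at 0.286. The count for *Rdh14* includes bases beyond the 218 printed above, which hold only some of the 9. The median over 32851 promoter windows was 6 CpG dinucleotides and a ratio of 0.373. The T-box core, AGGTGT on either strand, was found in 0 of the 7 windows of 300 bases from this region, and in 13.7% of all windows. Other letters searched on both strands were AGATAA for GATA factors, found in 0 of 7 windows against 11.2%, TNAAGTG for NKX2-5, found in 1 of 7 (*Laptm4a*) against 11.5%, and GGAATG for TEAD factors, found in 2 of 7 (*Matn3* and *Nt5c1b*) against 14.7%. None of the searched words contains another. These are matches of letters in short windows, and the sequences of the ncRNA loci themselves were not analysed here.

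Sequence conservation of the loci was low on the scale of 0 to 1, with a median above that of the whole list. The phastCons score, a probability of conservation averaged over the bases of a locus, had a median of 0.0983 over the 35 loci, with quartiles of 0.0696 and 0.125. Over the whole list, 1264 loci had a score, with a median of 0.0759 and wider quartiles of 0.0261 and 0.155. Within the run the median was 0.0942, and 21 of the 23 scores lay between the 0.0364 of XLOC_010916 and the 0.145 of XLOC_010934. The first locus of the block, XLOC_010903, stood apart with 0.243 and was followed by XLOC_010921 with 0.164. The loci of highest score were XLOC_012248, a minus-strand locus of 124 bp with 0.396, XLOC_010903 and XLOC_010964, a 139 bp locus with 0.220. The lowest scores were those of XLOC_010958 (0.000505), XLOC_012245 (0.0146) and XLOC_010948 (0.0260). The 25 loci of at least 1000 bp lay between 0.0260 and 0.243, and the highest and the lowest score both belonged to loci shorter than 700 bp.

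**Figure D2:**
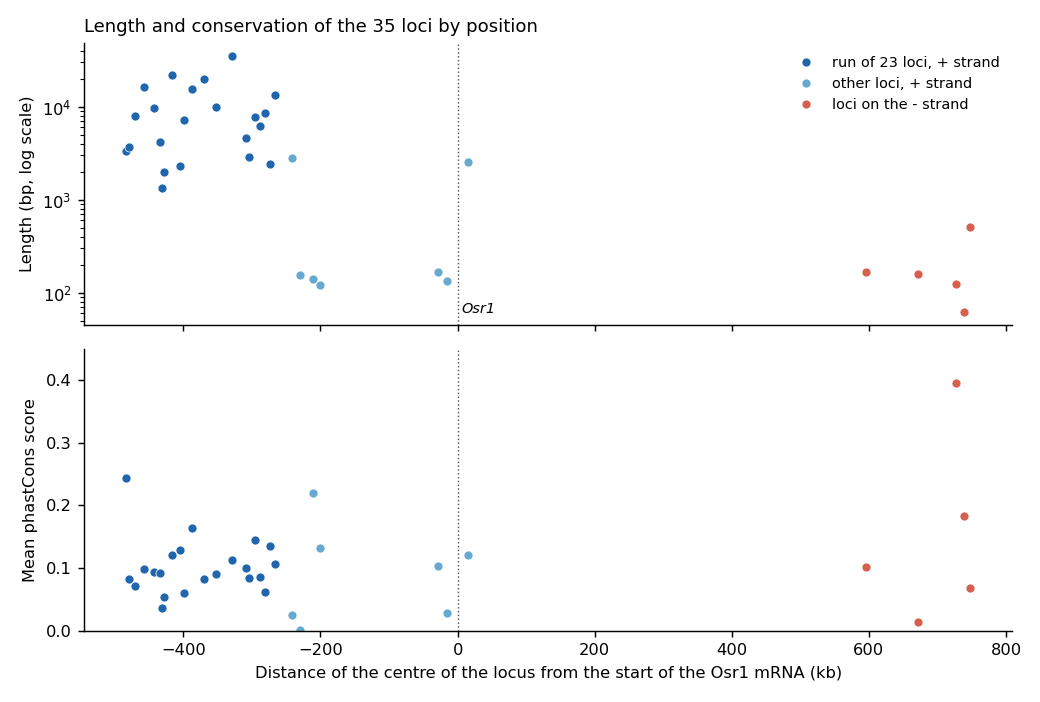
Length (log scale) and mean phastCons score of the 35 loci against the distance of their centre from the *Osr1* mRNA start in kb; each point is a locus and the dotted line marks *Osr1*. The loci of the run are all 1333 bp or longer with scores up to 0.243, while the short loci spread from 0.000505 to 0.396.

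Beside the rest of the list, the 35 loci included many long ones, which were those of the run far upstream of *Osr1*, and lacked the table's mark for bidirectional transcription. Of the 3 loci closest to *Osr1*, XLOC_011014 and XLOC_011020 were short, with 165 and 135 bp, and XLOC_011031 measured 2550 bp. The median length of all 35 was 3328 bp, against 193.5 bp over the other 1454 loci, and 25 of 35 (71.4%) measured at least 1000 bp, against 24.3%. Of the 65 loci of at least 10000 bp in the list, 8 belonged to this run, or 7 with the repeated interval counted once. The 65 likewise count each of the list's 3 repeated intervals for both of its loci. With 2.35% of the loci the set held 7.41% of the bases covered by the list, 213 of 2880 kb. On chromosome 12 it held 43.2% of the 81 loci and 74.5% of the covered bases. The mark for bidirectional transcription was given to 0 of 35 loci, against 23.4% of the list. The other runs compared below also had 0 loci with the mark. No listed locus of the opposite strand lay within 5 kb of any of the 35. Among 289 other loci of at least 1000 bp without annotation, 80 had it, and their median score was 0.100 with quartiles of 0.0622 and 0.144. Loci of a run are neighbours and not independent, so these counts and medians are given as a description without a test.

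**Figure D3:**
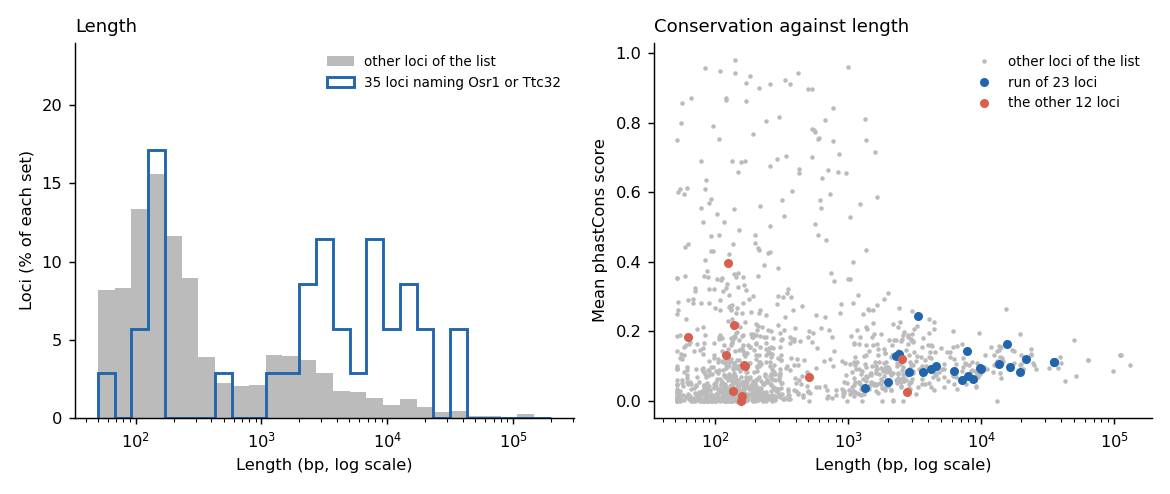
Left, distribution of locus length (log scale, percent of each set) for the 35 loci (blue line) and the other 1454 loci (grey). Right, mean phastCons score against length, each point a locus with a score; the run of 23 loci (blue) lies among other long loci, and the other 12 loci (red) mostly among the short ones.

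The run was among the largest of the list. It had rank 4 by number of loci among 989 runs, of which 824 were single loci, and rank 3 by covered bases and by span. The set was chosen for its many loci, so these ranks are a description and no result. The 2 runs with most loci, both on the minus strand between *Sash1* and *Samd5* on chromosome 10, had 49 and 43 loci and spans of 252 and 272 kb, of which 82.3% and 83.3% were covered. Their loci were shorter, with medians of 2439 and 1920 bp against 7742 bp in the run between *Ttc32* and *Osr1*, so that this run reached a like covered length, 206 kb against 207 and 226 kb, in fewer pieces. Median gaps were 290 and 162 bp against 176 bp, and the listed share of identifiers was 62% and 61.4% against 62.2%. GENCODE genes overlapped 3 and 20 of those loci and 0 of the 23 between *Ttc32* and *Osr1*. Loci of at least 10000 bp numbered 6 and 7 in the chromosome 10 runs and 8 in this run. The other plus-strand run of many loci, 26 between *Edn1* and *Phactr1* on chromosome 13, was of another form, with a median length of 269.5 bp and 8.68 kb covered of a span of 43.3 kb. All 4 runs had 0 loci marked as bidirectional and 0 with a linked gene. Median conservation scores were 0.0842 and 0.103 for the chromosome 10 runs, 0.0396 for the chromosome 13 run and 0.0942 for the run between *Ttc32* and *Osr1*.

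**Figure D4:**
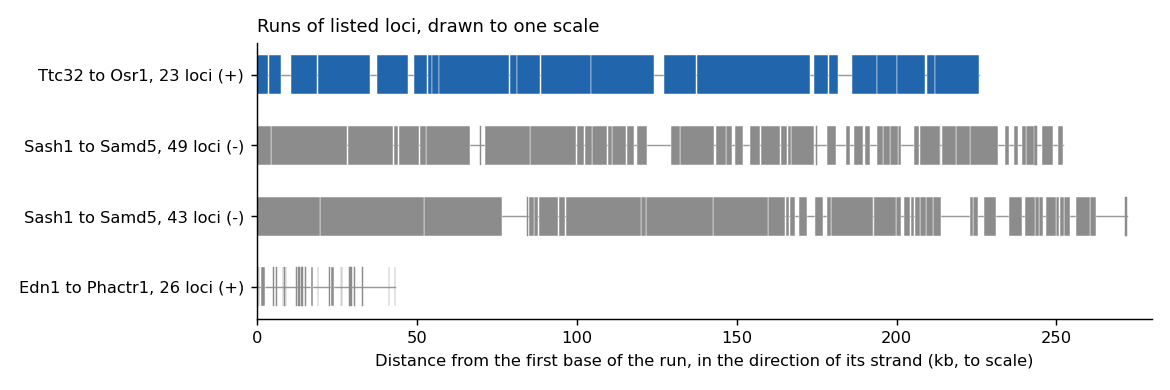
The run between *Ttc32* and *Osr1* (blue) and 3 other runs of listed loci (grey), drawn to one scale in kb from the first base of each run in the direction of its strand; boxes are loci and the line is the span. Covered shares are 91.5%, 82.3% and 83.3% in the upper 3 runs, and 8.68 of 43.3 kb in the lowest.

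Genes of atrial septation, second heart field and Hedgehog signalling were neighbours of listed loci about as often as coding genes in general. Of 38 such genes, 7 (18.4%) were named as a neighbour, against 16.8% of 21924 coding gene names in GENCODE, and 0 were entered as linked, against 1.23%. The 7 include *Osr1*, a neighbour by the choice of the set, and 6 remain without it. The 35 loci of *Osr1* are those that chose the set, so its place in this list is no result. Of the others, *Gata5*, a zinc finger factor of cardiac development, had 12 plus-strand loci of median length 1461 bp, the closest at 13 kb. *Hand2*, a helix-loop-helix factor of the second heart field, had 5 plus-strand loci, the closest at 7.03 kb. *Nkx2-5*, *Foxf2*, *Foxc1* and *Cdk6* had 1 locus each, at 131, 135, 39.6 and 4.16 kb. *Tbx5* itself had 0. Over all 3959 neighbour genes the median was 1 locus per gene, and *Osr1* had rank 3 and *Ttc32* rank 4 by the count that the choice of loci used. The gap between *Ttc32* and *Osr1* had rank 618 by length among 18883 gaps between coding genes. By number of loci it had rank 2 among the 751 gaps with a listed locus. The set was chosen for its many loci, so that rank is no result. Of 10 coding genes chosen for their place around *Osr1* on chromosome 12, 8 were neighbours of a listed locus. That count is no result, since *Osr1*, *Ttc32*, *Wdr35*, *Matn3* and *Laptm4a* were named by the loci of the set itself. The others, *Sdc1*, *Pum2* and *Rhob*, were named by 2 minus-strand loci further upstream.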

How the data were processed

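Directional single-end reads were aligned by the authors to mm10 with TopHat2 (versions 2.0.13 and 2.0.10 in the submitters' processing notes), assembled de novo with Cufflinks and counted with featureCounts, and genotypes were compared with DESeq. The deposited list holds ncRNAs past the authors' limits on false discovery rate and fold change, away from coding start sites. By its row count it may be the subset near a changed coding gene. Its 2 tables were identical and used once. Of 1490 rows, 1 had been emptied. The deposited phastCons value is a fraction from 0 to 1, averaged by the authors over mm9 bases with a score.

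Positions are 1-based mm10. Length is end minus start, inclusive, and may contain introns. Consecutive loci on the same strand were joined into a run where the gap was 10 kb or less. Genes came from GENCODE M21 (GRCm38) and, where named, RefSeq. Distances are between closest edges unless stated. Python 3.11.15 and pandas 2.3.3 were used, and the joining of runs and the covered lengths were tested on simulated data. The libraries' labels do not say whether each came from a separate animal, and no test was made on them.

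The loci and gene lists were chosen with earlier results of these data known. The rule for named items took *Osr1*, *Ttc32*, every gene linked to a locus or named as its neighbour, and noncoding genes a locus overlapped. It also took the 5 longest loci, the 3 highest and 3 lowest conservation scores, the locus closest to each of the 2 genes on each side, loci off the plus strand or over a gene, and the first and last of each run. The runs compared were the 2 others with most loci and the plus-strand run with most loci elsewhere. Loci XLOC_010917, XLOC_010921, XLOC_010934, XLOC_012237 and XLOC_012261 were named after their values were seen. The planned test of knockout against control was not run, because the tables used hold no values per library.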

Additional observations from a re-analysis of the deposited data

How the results depend on the processing

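No paired analysis was possible because the files used here hold no value per library. For the same reason the planned comparison of knockout with control, and its alternatives, were not run. Planned values of GC content, repeats and T-box sites within the loci were not run either, since no genome sequence was used. Of 26 alternatives over 8 results, 21 stayed within 1.5 times the reported value. Some of these could not differ, such as the choice by *Osr1* alone, which all 35 loci named. The share with the bidirectional mark was 0 in every alternative, where such a ratio has no meaning. The 12 runs of the 35 loci became 19 with a joining gap of 1 kb and 5 with 50 kb, and the longest run held 8 loci at 1 kb, since fewer neighbours are joined. The median length was 7742 bp over the run of 23 loci and 161 bp with 1 median per run, because 10 of the 12 runs were single loci, most of them short. The alternatives on the longest run, on the repeated interval and on the *Osr1* gene body were chosen after seeing the data. Depth is unknown, so nothing can be said of the precision of single loci.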
